A study of Mus musculus with 4 samples.

Results

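The 9 genes described here, *Runx1*, *Runx2*, *Runx3*, *Sp7*, *Dlx3*, *Dlx5*, *Msx1*, *Msx2* and *Twist1*, encode transcription factors of the osteogenic programme. They were taken by symbol from the 32285 genes counted in 4 single-cell RNA sequencing libraries of muscle that forms heterotopic bone, that is, bone outside the skeleton. All 9 had a row in the counts of every library. No measured value was used to choose them.

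The libraries came from tibial muscle of 6-8 week old *Nse-Bmp4* mice on the C57BL/6 strain, 1 before injury (Uninjured) and 1 at each of 1, 3 and 7 days (dpi) after cardiotoxin was injected, a snake venom toxin that kills muscle fibres. Every group, Uninjured included, carries the transgene, in which the neuron-specific enolase promoter drives *Bmp4*, so no comparison here is with wild-type muscle. Each library pooled 3 muscles, and with 1 library per time point a difference between times cannot be told apart from a difference between libraries. No test between times was therefore possible, and the 95% intervals given below cover counting error only.

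RUNX proteins bind DNA through the Runt domain together with the partner CBFB. RUNX2 commits mesenchymal cells to the osteoblast lineage and drives chondrocyte hypertrophy, and SP7 (osterix) acts after it in osteoblast differentiation. RUNX1 is best known from blood cell formation and RUNX3 from cytotoxic lymphocytes, although both are also made in cartilage. DLX5 and DLX3 are homeodomain activators downstream of BMP signals, MSX1 and MSX2 are homeodomain repressors of limb and skull mesenchyme, and TWIST1 is a mesenchymal factor that restrains RUNX2.

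The 3 *Runx* genes share a stretch at a promoter, shown here because it is a site that their own proteins could read. In RefSeq windows of 300 bases on GRCm38.p6, from 250 bases before to 50 after the annotated start, a window of each gene held 2 copies of the RUNX motif AACCACA in tandem, 8 bases apart from start to start. They are printed 5′ to 3′ on the strand of the gene, with both copies of the motif in capitals:
Runx1: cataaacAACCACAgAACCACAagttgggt
Runx2: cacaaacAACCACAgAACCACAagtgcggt
Runx3: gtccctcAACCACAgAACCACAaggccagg
The *Runx1* stretch lies at chr16:92826025-92826054 on the minus strand, in an untranslated part of the first exon, and its first motif starts 27 bases after the RefSeq start. The *Runx2* stretch lies at chr17:44814583-44814612 on the minus strand, with its first motif starting 22 bases after the start, in the first exon, which is untranslated or coding depending on the transcript. The same bases lie inside *Supt3*, which is annotated on the opposite strand. The *Runx3* stretch lies at chr4:135120503-135120532 on the plus strand, with its first motif starting 135 bases before the start, upstream of the first *Runx3* exon. Both strands were searched. Of 32851 promoter windows, 5 held the tandem (0.0152%). These belonged to the 3 *Runx* genes, to *Olfr24* and to *Gm16225*, whose window overlaps that of *Runx3* on the other strand and so holds the same letters. A single AACCACA was in 1731 windows (5.27%). The motif was chosen after the sequences had been seen. Windows were found for 6 of the 9 members, 8 windows in all, and the remaining *Runx1* and *Runx3* windows and those of *Msx1*, *Msx2* and *Twist1* held neither form of it. *Sp7*, *Dlx3* and *Dlx5* had no entry. The counts do not show from which promoter a transcript came.

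Positions of the genes are given on GRCm38 from GENCODE M21. *Runx1* lies at chr16:92601466-92826149, *Runx2* at chr17:44495987-44814797 and *Sp7* at chr15:102356606-102367182, all on the minus strand. *Dlx5* (chr6:6877805-6882085), *Msx1* (chr5:37820485-37824583) and *Msx2* (chr13:53466884-53473074) are also on the minus strand. *Runx3* (chr4:135120652-135177990), *Dlx3* (chr11:95120119-95125296) and *Twist1* (chr12:33957671-33959829) are on the plus strand.

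The deposited counts are unique molecular identifiers (UMIs), each standing for a captured transcript. The libraries held 11722 to 23752 cells and 91146335 to 129007669 UMIs, and 10307, 9641, 12604 and 20301 cells remained after quality filters in Uninjured, 1, 3 and 7 dpi. Cells were sorted into 15 classes by UMIs of at least 3 of 6 marker genes, none of them a member. The mesenchymal gate held 8430, 3886, 6505 and 10026 cells in that order, and the chondrocyte gate held 6023 cells, all at 7 dpi. All 6 markers of each of these gates were detected in it. The median depth of mesenchymal-gated cells fell from 9155 UMIs in Uninjured to 3172 at 7 dpi. Levels are therefore in CPM, which divides the summed UMIs of a gene by those of all genes in the gate and multiplies by 1000000, and shares of cells were also computed after thinning each cell to 1000 UMIs, which left out 0, 8, 232 and 677 shallower mesenchymal-gated and 183 chondrocyte-gated cells. B-gated cells, with a median of 1457 to 2855.5 UMIs, served as the measure of free RNA for genes that B cells should lack. *Dlx5* had 0 UMIs in the B gates of all 4 libraries, and *Sp7* had 0, 0, 0 and 1. *Msx1* had at most 4 UMIs there and *Twist1* at most 7. *Runx1* and *Runx3* are expressed by B cells, so the B gate gives no background for them.

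In mesenchymal-gated cells the *Runx* genes were higher after injury, *Sp7* and *Dlx5* were higher mainly at 7 dpi, and *Msx1* was lower from 3 dpi on. A gene was counted as higher or lower when the CPM differed by 2-fold or more with at least 20 UMIs in the higher sum. *Dlx3* and *Msx2* did not reach that number, which left 7 of the 9 members. From Uninjured to 1 dpi, 3 members were higher (*Runx1*, *Runx3*, *Sp7*) and 0 lower, against 9.56% of all genes higher and 5.53% lower. With cells thinned to 1000 UMIs, or with at least 100 UMIs asked for, only *Runx1* of the 3 was still counted. From 1 to 3 dpi, 3 were higher (*Runx1*, *Runx2*, *Runx3*) and 1 was lower (*Msx1*), against 7.69% and 5.65% of all genes. The *Msx1* call was lost with thinned cells and with the mean over cells (log2 ratios of −0.75 and −0.64 against −1.07). The *Runx3* direction turned with a gate on *Prrx1* and *Col1a1* without *Ptprc* (log2 ratio −0.062). It also turned after subtracting the B-gated level (−0.68), but B cells express *Runx3*, so that level is no background for it. From 3 to 7 dpi, 4 were higher (*Runx3*, *Sp7*, *Dlx5*, *Twist1*) and 1 was lower (*Msx1*), against 10.7% and 7.14%. The share of thinned cells with a *Twist1* UMI differed by less than 2-fold in this step. Between Uninjured and 7 dpi, 5 were higher (the 3 *Runx* genes, *Sp7*, *Dlx5*) and 1 was lower (*Msx1*), against 18.1% and 10.9%. The median log2 ratio of the members in these 4 comparisons was 0.68, −0.46, 1.27 and 3.33, and that of all genes was 0.16, −0.06, −0.07 and 0.08. These comparisons share libraries, so their counts are not independent of each other.

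**Figure D1:**
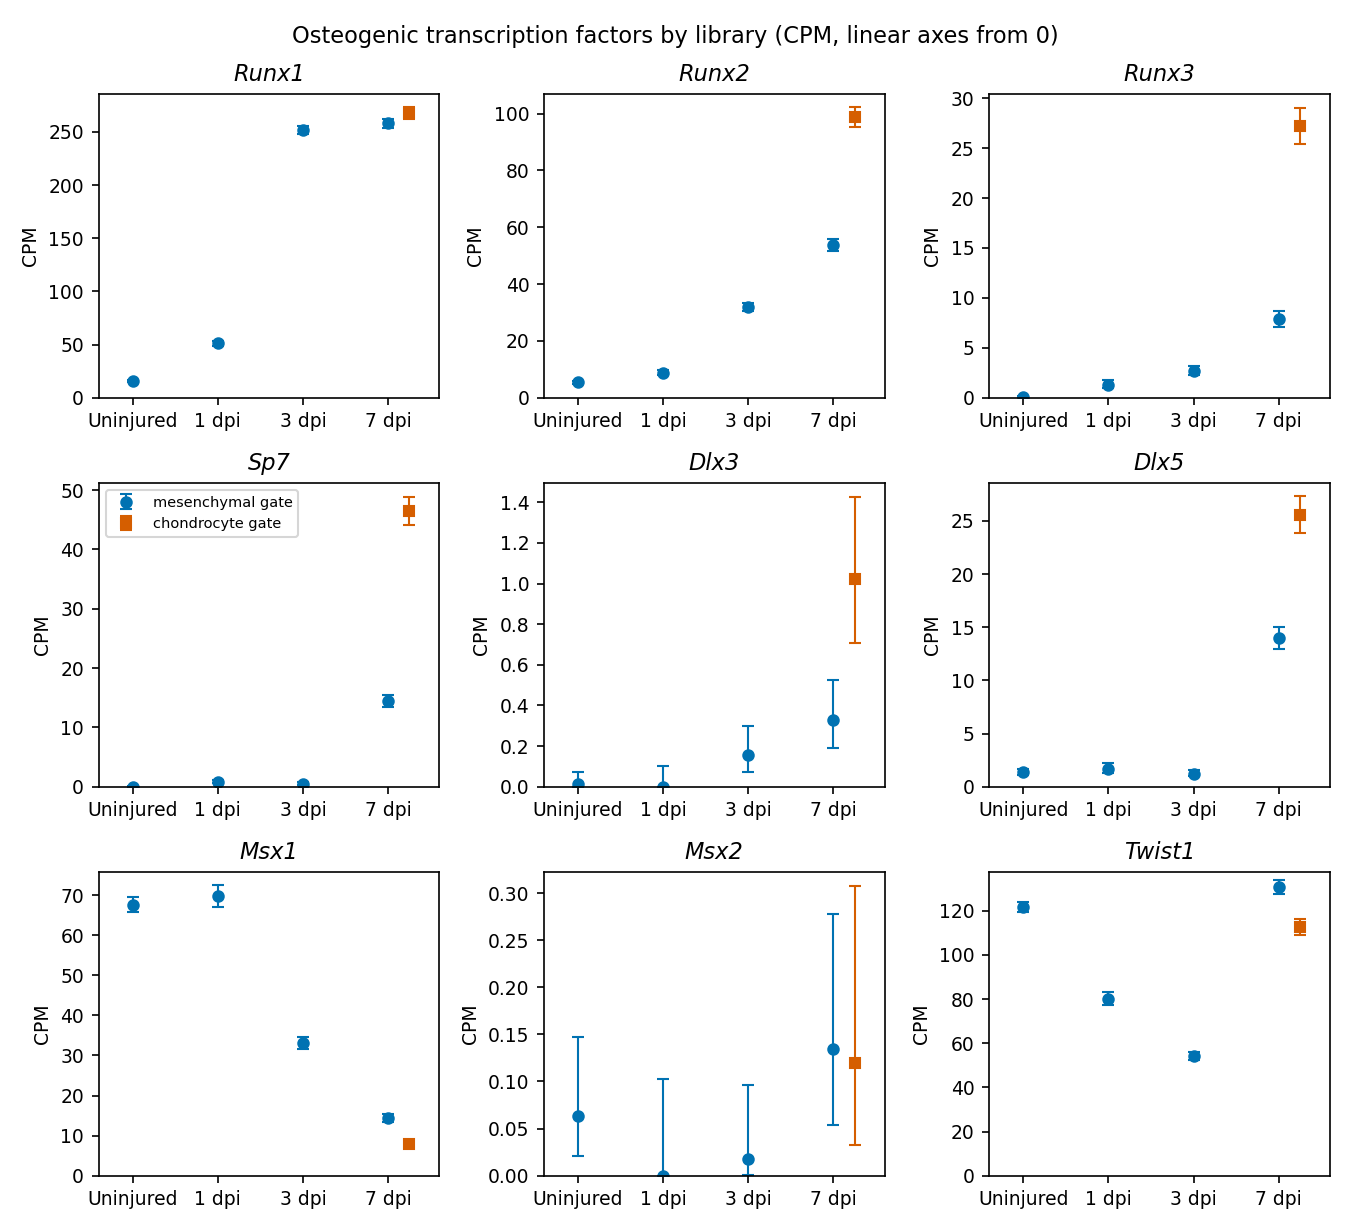
CPM of each of the 9 genes (vertical axis, a scale of its own in every panel) in Uninjured and at 1, 3 and 7 dpi, with circles for mesenchymal-gated and squares for chondrocyte-gated cells and bars for exact Poisson 95% intervals. *Runx1* in mesenchymal-gated cells steps from 51.2 CPM at 1 dpi to 252 CPM at 3 dpi, while *Sp7* and *Dlx5* stay under 2 CPM until 7 dpi.

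*Runx1* had 15.4, 51.2, 252 and 258 CPM in mesenchymal-gated cells of Uninjured, 1, 3 and 7 dpi, from 1218, 1834, 14490 and 13411 UMIs. The level was 3.33-fold higher at 1 dpi than in Uninjured (3.09–3.58) and again 4.92-fold higher at 3 dpi than at 1 dpi, after which it was nearly level (ratio 1.03, 1.00–1.05). Averaged over cells, so that deep cells count no more than shallow ones, the last step was larger, from 177 to 258 CPM. The share of thinned cells with a *Runx1* UMI was 1.30%, 3.84%, 15.5% and 21.1%, and before thinning it was 9.55%, 23.1%, 47.6% and 52.2%. Without mesenchymal-gated cells that had a UMI of *Ptprc*, the pan-leukocyte gene, the *Runx1* ratios of the same steps were 3.24, 5.08 and 1.02.

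The *Runx1* difference was seen in every mesenchymal subset that could be gated, and its size depended on the subset. Subsets were gated on at least 2 of 4 markers led by *Pi16* (adventitial fibroblasts), *C7* (parenchymal fibroblasts), *Tnmd* (tendon cells) or *Lrrc15* (activated fibroblasts), and a cell could be in more than 1. In *Pi16*-gated cells *Runx1* had 14.6 CPM in Uninjured and 234 CPM at 3 dpi, a ratio of 16.0 (14.9–17.3). In *Lrrc15*-gated cells it already had 142 CPM in Uninjured, from 212 UMIs in 87 cells, and 338 CPM at 3 dpi, a ratio of 2.38 (2.08–2.74). Between the subsets, *Lrrc15*-gated over *Pi16*-gated cells gave a *Runx1* ratio of 9.72 in Uninjured (8.31–11.3), 2.10 at 1 dpi, 1.44 at 3 dpi and 1.63 at 7 dpi. The few *Lrrc15*-gated cells of Uninjured were deep, with a median of 17950 UMIs against 9690 in the *Pi16* gate. The part of depth in this difference was not tested.

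*Runx2*, the osteoblast lineage factor, had 5.47, 8.76, 31.9 and 53.7 CPM in mesenchymal-gated cells, from 433, 314, 1839 and 2791 UMIs. Each level was above the preceding one beyond counting error, with ratios of 1.60 (1.38–1.86), 3.65 (3.23–4.12) and 1.68 (1.59–1.79), and 7 dpi was 9.83-fold above Uninjured. The thinned share of cells with a UMI was 0.63%, 0.98%, 2.23% and 5.26%, against at most 0.70% in the B gates. Before thinning it was 4.57%, 5.87%, 15.1% and 19.3%. *Runx2* was also higher in cycling cells, gated on at least 3 of 6 mitotic genes. At 3 dpi it had 59.0 CPM in the 769 cycling and 22.6 CPM in the 5736 other mesenchymal cells, a ratio of 2.61 (2.38–2.86). The ratio was 2.56 at 1 dpi and 1.27 at 7 dpi. Without the cycling cells the 3 dpi level was still 2.79-fold above 1 dpi (2.44–3.20). Cycling cells were deeper than the gate as a whole, with a median of 19051 UMIs at 3 dpi.

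Genes that overlap *Runx2* were read beside it. *Supt3*, which lies across the 5′ end of *Runx2* on the opposite strand, had 10.8, 11.2, 11.4 and 12.5 CPM in mesenchymal-gated cells of the 4 libraries. It was thus nearly level where *Runx2* differed 9.83-fold. The antisense gene *Runx2os1* had 1.88, 1.00, 3.56 and 5.50 CPM in the same order. Whether the counting used strand is not given in the sources used here, so a share of *Runx2* reads from either cannot be told apart.

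*Runx3* was low in mesenchymal-gated cells, with 9, 47, 155 and 408 UMIs or 0.114, 1.31, 2.69 and 7.85 CPM. The 7 dpi level was 69.1-fold above Uninjured (36.0–152) and 2.92-fold above 3 dpi (2.42–3.53). NK- and T-gated cells had 136 CPM of *Runx3* or more in every library. Without the mesenchymal-gated cells with a *Ptprc* UMI the counts were 5, 28, 71 and 348, and the ratio of 3 to 1 dpi was 1.54 (0.983–2.48) instead of 2.05, no longer 2-fold. The ratio of 7 to 3 dpi was 5.43 (4.20–7.11) in these cells. This split was made after the data had been seen, and the part of immune cells in the result was not tested.

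*Sp7*, the osteoblast factor that acts after *Runx2*, was close to absent from mesenchymal-gated cells until 7 dpi. The mesenchymal gate held 2, 30, 29 and 750 *Sp7* UMIs, in 2, 12, 22 and 603 cells, or 0.0253, 0.837, 0.504 and 14.4 CPM. The 7 dpi level was 28.7-fold above 3 dpi (19.8–43.1). The 1 dpi level was 33.2 times that of Uninjured (8.41–286), resting on 30 UMIs against 2, and it came from few cells, as described below. Over all deposited barcodes of any class the 4 libraries held 30, 56, 53 and 3399 *Sp7* UMIs. Most *Sp7* UMIs of Uninjured thus lay outside this gate. The thinned share of cells with a UMI at 7 dpi was 1.86% (6.01% before thinning), and 1 of 142 thinned B-gated cells (0.70%, 0.02–3.86%) had one. At that depth the B gate is too small to set the share of cells apart from free RNA. In CPM without thinning, the B gate of 7 dpi had 4.07 (0.103–22.7). T-gated cells of 7 dpi had 0 (0–2.75) and NK-gated cells 0.962 (0.0243–5.36), against 14.4 (13.4–15.5) in mesenchymal-gated cells.

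*Dlx5*, a homeodomain activator of *Runx2* and *Sp7*, had 110, 61, 71 and 727 UMIs in mesenchymal-gated cells. That made 1.39, 1.70, 1.23 and 14.0 CPM, with no difference past counting error before 7 dpi and an 11.3-fold difference between 3 and 7 dpi (8.88–14.7). The B gate of 7 dpi, with 0 *Dlx5* UMIs, had an upper limit of 15.0 CPM and was too small to set this level apart from free RNA. T- and NK-gated cells of 7 dpi had 0 UMIs too, with upper limits of 2.75 and 3.55 CPM. Its neighbour *Dlx6* had 3 UMIs at 3 dpi and 47 at 7 dpi, a ratio of 17.4 (5.59–87.2). *Dlx3* had 1, 0, 9 and 17 UMIs in the same gates, too few for a comparison.

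*Msx1*, a repressor kept in undifferentiated mesenchyme, went the other way. It had 67.6, 69.8, 33.2 and 14.4 CPM in mesenchymal-gated cells, from 5358, 2503, 1911 and 750 UMIs. Uninjured and 1 dpi were alike (ratio 1.03, 0.984–1.08), then *Msx1* was 2.10-fold lower at 3 dpi than at 1 dpi (1.98–2.23) and 2.30-fold lower at 7 than at 3 dpi (2.11–2.51). In the mean over cells the levels were 69.4, 82.0, 52.7 and 13.8 CPM. *Msx1* was lower in cycling cells, with 16.4 against 39.0 CPM at 3 dpi, and without them the difference between 1 and 3 dpi was 1.86-fold. *Msx2*, its paralog, had 5, 0, 1 and 7 UMIs and gave no comparison.

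*Twist1*, the factor that holds RUNX2 back in early mesenchyme, had 122, 80.1, 54.1 and 131 CPM in mesenchymal-gated cells, from 9644, 2873, 3117 and 6786 UMIs. It was lowest at 3 dpi, 2.25-fold below Uninjured (2.16–2.34), and 2.41-fold higher at 7 dpi than at 3 dpi (2.31–2.52). After thinning, 927 of 8430, 290 of 3878, 411 of 6273 and 1009 of 9349 cells had a *Twist1* UMI. In these shares the same differences were under 2-fold. The 7 dpi level was close to that of Uninjured (ratio 1.07, 1.04–1.11).

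At 7 dpi the chondrocyte gate could be set beside the mesenchymal gate of the same library, so that both come from 1 library. The mesenchymal gate of 7 dpi was not free of cartilage transcripts. *Col2a1*, a cartilage collagen gene, had UMIs in 3371 of its 9423 cells without *Sp7*, against 16 of 6483 at 3 dpi. Of the 8 members with enough UMIs, 3 were higher in chondrocyte-gated cells (*Runx3*, *Sp7*, *Dlx3*) and 0 lower, against 3.70% of all genes higher and 4.69% lower. The median log2 ratio of the 8 was 0.87 and that of all genes −0.09. *Sp7* had 1548 UMIs in 1080 chondrocyte-gated cells, 46.5 against 14.4 CPM in the mesenchymal gate, a ratio of 3.22 (2.95–3.52). Its thinned share was 4.52% (4.0–5.1%; 17.9% before thinning), above the upper limit of 3.86% in B-gated cells. *Runx3* had 27.2 against 7.85 CPM, a ratio of 3.46 (3.1–3.9), and 3.68 without cells carrying *Ptprc*. *Dlx3*, the other distal-less member, had 34 UMIs against 17, a ratio of 3.12 (1.70–5.96).

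*Runx2* and *Dlx5* were also higher in chondrocyte-gated cells, by less than 2-fold. *Runx2* had 98.8 against 53.7 CPM, a ratio of 1.84 (1.75–1.93). *Dlx5* had 25.5 against 14.0 CPM, a ratio of 1.82 (1.65–2.02). *Runx1* was nearly level at 268 against 258 CPM, *Twist1* had 113 against 131 CPM (ratio 0.862), and *Msx1* had 7.99 against 14.4 CPM (ratio 0.553, 0.479–0.637). No chondrocyte-gated cell came from Uninjured, 1 or 3 dpi, so the course of these levels within cartilage was not seen.

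**Figure D2:**
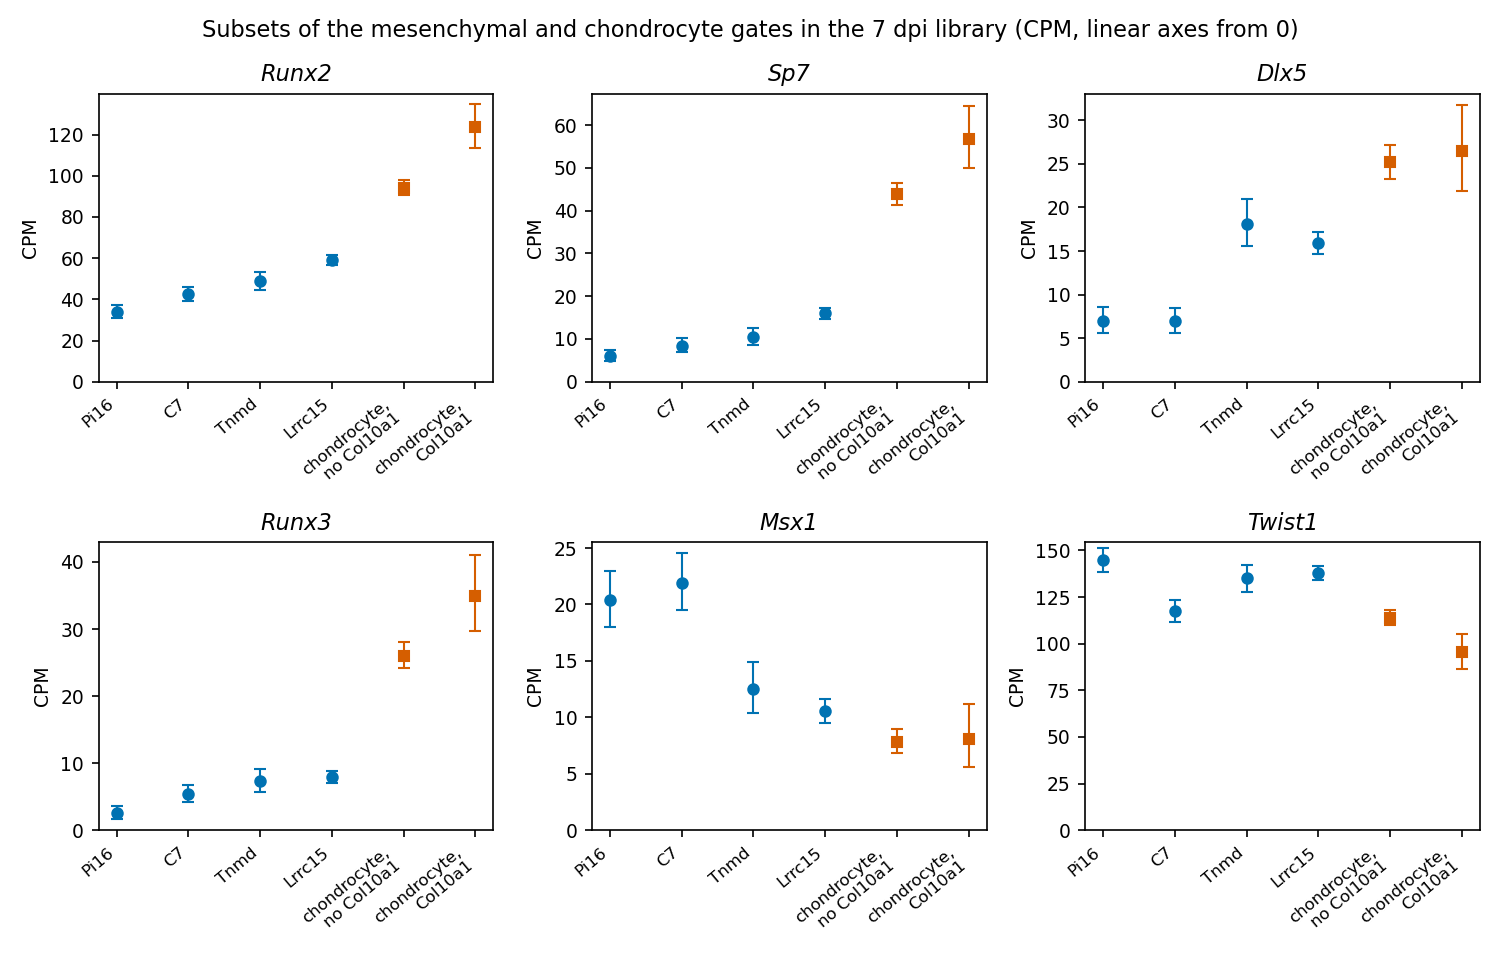
CPM of *Runx2*, *Sp7*, *Dlx5*, *Runx3*, *Msx1* and *Twist1* at 7 dpi (vertical axis from 0, a scale for each panel) in the *Pi16*, *C7*, *Tnmd* and *Lrrc15* subsets of mesenchymal-gated cells and in chondrocyte-gated cells without and with *Col10a1*, with Poisson 95% intervals as bars. *Sp7* runs from 6.03 CPM in the *Pi16* subset to 56.9 CPM in chondrocytes with *Col10a1*, and *Msx1* is highest in the *Pi16* and *C7* subsets.

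Among the mesenchymal subsets of 7 dpi, the *Lrrc15* subset (5943 cells) lay nearer to the chondrocyte gate than the *Pi16* subset (1710 cells) did. *Sp7* had 16.0 against 6.03 CPM, a ratio of 2.65 (2.09–3.39), and *Runx3* 7.91 against 2.52 CPM, a ratio of 3.14 (2.19–4.64). *Dlx5* had 15.9 against 6.95 CPM, a ratio of 2.29 (1.84–2.89). *Msx1* was the reverse, with 10.5 against 20.4 CPM, and *Twist1* was level at 138 against 145 CPM. The *Tnmd* subset had the highest mesenchymal *Dlx5* level, 18.1 CPM.

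Chondrocyte-gated cells were split by *Col10a1*, the collagen of hypertrophic cartilage, into 4696 cells without a UMI and 872 cells with at least 2. *Runx2* had 94.2 CPM without and 124 CPM with *Col10a1*, a ratio of 1.31 (1.20–1.44), and *Sp7* 43.9 and 56.9 CPM, a ratio of 1.29 (1.12–1.49). *Runx1* was lower with *Col10a1*, 214 against 275 CPM (ratio 0.778, 0.726–0.833), and *Twist1* was lower too, 95.5 against 114 CPM (ratio 0.838, 0.755–0.929). None of these reached 2-fold. Of the 872 cells, 336 had at least 10 *Col10a1* UMIs, so the sets overlap. In these 336 the levels were 133 CPM for *Runx2*, 59.7 for *Sp7*, 185 for *Runx1* and 85.7 for *Twist1*. Each was further from the cells without *Col10a1*. Whether these further steps exceed counting error, and the part of depth in them, was not tested.

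Cells with an *Sp7* UMI were then compared with those without, for other genes of the osteoblast programme. Having a UMI depends on depth, and cells with *Sp7* were deeper, with a median of 4565 against 3095 UMIs in the mesenchymal gate of 7 dpi and 6190.5 against 3368 in the chondrocyte gate. In chondrocyte-gated cells *Runx2* had 130 CPM with and 86.2 CPM without *Sp7*, and *Ibsp*, a bone matrix sialoprotein, 8115 and 2810 CPM. *Bglap*, which encodes osteocalcin of mature osteoblasts, had 8.5 and 2.4 CPM there. In mesenchymal-gated cells of 7 dpi *Ibsp* had 1815 and 264 CPM, and *Alpl*, the alkaline phosphatase of mineralising cells, 331 and 100 CPM. *Bglap* had 0.9 (0.246–2.31) and 0.3 CPM (0.192–0.547) there, from 4 and 16 UMIs, with overlapping intervals. After thinning, 32 of 496 chondrocyte-gated cells with *Runx2* also had *Sp7* (6.45%), against 4.34% of the cells without *Runx2*, and in the mesenchymal gate it was 12 of 492 (2.44%) against 1.83%.

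The 12 cells with *Sp7* at 1 dpi were mixed, and most of them carried bone genes. Their median depth, 8529.5 UMIs, was close to the 8082.5 of the remaining 3874 mesenchymal-gated cells. Of the 12, 9 had *Bglap*, 8 *Ibsp*, 9 *Alpl*, 9 *Runx2*, 9 *Dlx5* and 6 *Runx3*, and 0 had *Col2a1*, the main cartilage collagen. *Bglap* had 4252 CPM over these cells and 1.3 CPM in the remaining ones, but 2 cells held 282 and 112 of its 454 UMIs, the other 7 positive cells held 1 to 33 each and 3 cells had neither *Bglap*, *Ibsp* nor *Alpl*. *Runx2* had 244 and 8.1 CPM and *Dlx5* 187 and 1.1 CPM. Of the 12, 8 had both *Bglap* and *Ibsp*. In the 22 cells with *Sp7* at 3 dpi *Ibsp* had 943 CPM, while *Bglap* had 16.4 CPM from 6 UMIs in 1 cell.

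**Figure D3:**
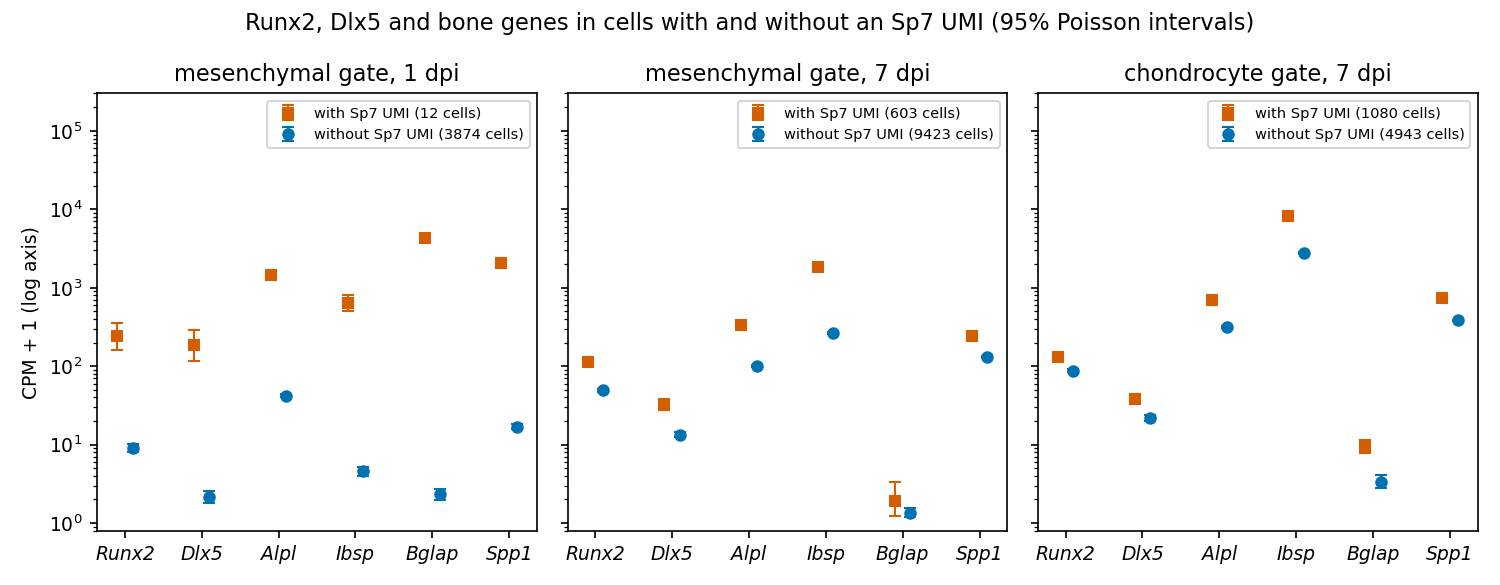
CPM + 1 (log axis) of *Runx2*, *Dlx5*, *Alpl*, *Ibsp*, *Bglap* and *Spp1* in cells with and without an *Sp7* UMI, in the mesenchymal gate of 1 dpi (12 and 3874 cells), the mesenchymal gate of 7 dpi (603 and 9423 cells) and the chondrocyte gate of 7 dpi (1080 and 4943 cells), with Poisson 95% intervals as bars. *Bglap* is at 4252 CPM in the 12 cells of 1 dpi, where 2 cells hold 282 and 112 of its 454 UMIs, and at most 8.5 CPM in the gates of 7 dpi, while *Ibsp* is high in cells with *Sp7* in all 3 gates.

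A count of cells with UMIs of at least 3 of *Bglap*, *Bglap2*, *Ibsp*, *Ifitm5*, *Dmp1*, *Mepe* and *Phex*, a set of 7 bone matrix and osteocyte genes chosen after the values had been seen, gave 0, 7, 4 and 8 mesenchymal-gated cells in Uninjured, 1, 3 and 7 dpi. All 7 cells of 1 dpi (0.18% of the gate) had *Sp7*, with 20 of the 30 *Sp7* UMIs of that gate. Without them *Sp7* at 1 dpi fell to 10 UMIs, under the number needed for a comparison, and *Runx3* stayed 9.35-fold above Uninjured. In the chondrocyte gate 61 cells met the same count (1.01%), 60 of them with *Col2a1*. These 61 cells had 211 CPM of *Runx2* against 96.2 in the other chondrocyte-gated cells (ratio 2.20, 1.86–2.58), and *Sp7* (116 and 44.9 CPM) and *Dlx5* (56.8 and 24.8 CPM) differed alike. *Dlx3* had 7 UMIs in them, a ratio of 11.1 (4.09–26.2). *Runx1* was lower, 129 against 271 CPM. Reaching 3 of the bone genes depends on depth, and the part of depth in these differences was not tested. From which tissue the cells with bone genes came was not tested either.

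Outside the mesenchyme the *Runx* genes were high in immune classes, each highest in a different one. From Uninjured to 1 dpi, the T, NK, neutrophil and monocyte-macrophage gates gave 2 member differences of 2-fold or more, both higher *Runx2*. Of all genes, 24.4% (T), 22.1% (NK), 29.0% (neutrophil) and 21.5% (monocyte-macrophage) differed in either direction. Only *Runx1*, *Runx2* and *Runx3* reached 20 UMIs in these gates, each in all 4. The 2 differences were thus no larger a share than among all genes. *Runx2* in T-gated cells had 12.4, 50.9, 77.6 and 40.2 CPM in the 4 libraries, 4.10-fold higher at 1 dpi than in Uninjured (2.48–7.22) on 154 against 17 UMIs. In NK-gated cells it had 29.0, 62.6, 50.6 and 40.4 CPM, 2.16-fold higher at 1 dpi (1.19–4.29) on 126 against 12 UMIs.

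The highest *Runx2* level of any gate was in plasmacytoid dendritic cells, the interferon-producing dendritic cells. It was 1229 CPM at 1 dpi (1127–1338), with 531 UMIs in 47 of 48 cells, and 1022 CPM at 3 dpi (933–1116), with 492 UMIs in 90 of 92 cells. After thinning, 62.5% and 63.3% of these cells had a *Runx2* UMI. The level was 140-fold that of mesenchymal-gated cells at 1 dpi and 32.0-fold at 3 dpi, and above conventional dendritic cells by 39.6-fold and 33.7-fold. Only 1 such cell was gated in Uninjured and 9 at 7 dpi, the latter with 9 *Runx2* UMIs (224 CPM). The overlapping *Supt3* had 25.5 and 27.0 CPM in them at 1 and 3 dpi.

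*Runx3*, the cytotoxic lymphocyte factor, was highest in NK-gated cells, with 184, 257, 269 and 216 CPM over Uninjured, 1, 3 and 7 dpi. T-gated cells followed with 136, 176, 221 and 155 CPM. Outside these lymphocytes, *Runx3* had 181 CPM (145–223) in plasmacytoid dendritic cells of 3 dpi. It had 151 and 140 CPM in mast cells of 1 and 3 dpi and 133 CPM in conventional dendritic cells of 3 dpi. Among T-gated cells it was higher with *Cd8a* than with *Cd4* in each library, by 1.95 (1.13–3.57), 1.61 (1.27–2.06), 1.49 (1.13–1.99) and 2.96 (1.67–5.59). In monocyte-macrophage-gated cells *Runx3* had 54.1, 49.3, 125 and 45.0 CPM, with a peak at 3 dpi that was 2.54-fold above 1 dpi. *Runx1* was highest in mast cells, 436 CPM at 1 dpi and 463 CPM at 3 dpi, about level between the 2 libraries and 2.30-fold and 1.96-fold above monocyte-macrophage-gated cells of the same library.

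**Figure D4:**
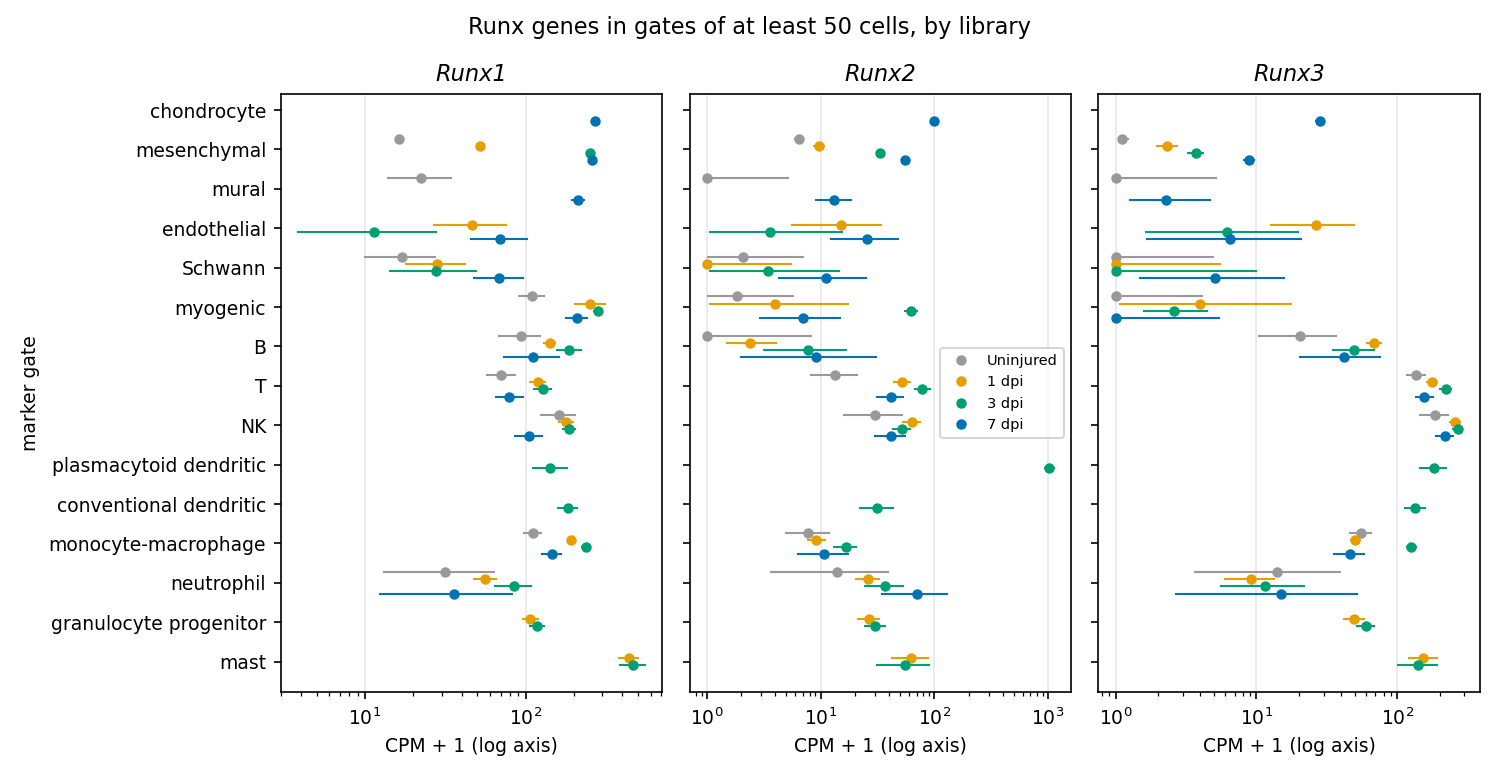
CPM + 1 (log axis) of *Runx1*, *Runx2* and *Runx3* in every gate of at least 50 cells, with a colour for each library and Poisson 95% intervals as bars. *Runx2* stands above 1000 CPM in plasmacytoid dendritic cells of 3 dpi, *Runx3* is highest in NK-gated cells, and *Runx1* is highest in mast cells.

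Mural and muscle cells completed the picture. In mural-gated cells, the smooth muscle cells and pericytes of vessels, *Runx1* had 21.3 CPM in Uninjured (109 cells) and 210 CPM at 7 dpi (332 cells), a ratio of 9.87 (6.25–16.5). *Msx1* had 99.9 CPM (80.2–123) in mural-gated cells of Uninjured, its highest level in any gate of at least 50 cells, and was 4.39-fold lower at 7 dpi. That interval overlapped those of endothelial-gated cells of 3 dpi (75.2 CPM, 50.4–108) and 1 dpi (74.0 CPM, 48.3–108). *Runx2* had 0 UMIs in mural-gated cells of Uninjured and 29 at 7 dpi, 3.63-fold higher against a floor of 3 UMIs. The mural gates of 1 and 3 dpi held 15 and 16 cells, too few to follow these levels between Uninjured and 7 dpi.

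In myogenic-gated cells, the satellite cells and myoblasts, *Runx1* had 108, 251, 282 and 207 CPM in Uninjured, 1, 3 and 7 dpi. *Runx2* was nearly confined to 3 dpi, with 1, 1, 235 and 5 UMIs in the 4 libraries. The 3 dpi UMIs lay in 113 of 245 cells and gave 61.6 CPM. Splitting these cells by *Myog*, the differentiation factor of myoblasts, gave 67.9 CPM of *Runx2* with it and 56.8 CPM without. *Dlx3* had 13 UMIs in 11 of these cells, or 3.41 CPM (1.82–5.83). It had 0 UMIs in the myogenic gates of Uninjured, 1 and 7 dpi, with upper limits of 3.09, 10.9 and 4.39 CPM. These limits overlap the 3 dpi interval, so *Dlx3* cannot be said to be confined to 3 dpi. *Twist1* had at most 4 UMIs in any myogenic gate.

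Over the 44 combinations of gate and library with at least 50 cells, the order of levels differed for each member. *Sp7* was highest in chondrocyte-gated cells, then in the mesenchymal and mural gates of 7 dpi, and *Dlx5* in the chondrocyte and then the mesenchymal gate of 7 dpi. *Dlx3* was highest in myogenic-gated cells of 3 dpi, on 13 UMIs (3.41 CPM). Gates with 0 *Dlx3* UMIs had upper limits of up to 25.7 CPM. *Twist1* was highest in mesenchymal-gated cells of 7 dpi. The genes most like a member were taken by the Pearson correlation of log2(CPM + 1) over these 44 points, which share libraries and depth, so r is a description. *Twist1* was most like *Col6a3* (r = 0.93), *Pcolce* (0.91) and *Aspn* (0.90), all genes of fibroblast matrix, and *Msx1* most like *Fam13c* (0.91), *St6galnac2* (0.88) and *Cped1* (0.87). *Runx3* was most like *Coro2a* (0.91), *Cd48* (0.91) and *Rasal3* (0.90), and *Runx2* most like its antisense *Runx2os1* (0.76), then *Plp2* (0.66). *Sp7* was most like *Slc13a5* (0.84), *Cdkn2b* (0.83) and *Aqp5* (0.82), and *Dlx5* most like *Gm4544* (0.89), *Irx1* (0.87) and *Adamts19* (0.86). *Runx1* had weaker likes, among them *Jpt2* (0.70) and *Rps9* (0.69).

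Genes that work with the members were read from 5 lists. Of all genes, 9.56%, 7.69%, 10.7% and 18.1% were higher in the 4 comparisons in time, in the order used above. The shares lower were 5.53%, 5.65%, 7.14% and 10.9%. Between the gates 3.70% of all genes were higher and 4.69% lower in chondrocyte-gated cells. Of the 10 RUNX partner and corepressor genes, 0 differed by 2-fold from Uninjured to 1 dpi, 2 were lower at 3 than at 1 dpi (*Runx1t1*, *Tle4*), 1 was lower at 7 than at 3 dpi (*Tle4*) and 1 was higher in chondrocyte-gated cells (*Trps1*, 2.39-fold). *Cbfb*, which encodes the partner of all 3 RUNX proteins, had 27.8 CPM in mesenchymal-gated cells of Uninjured and 66.8 CPM at 7 dpi, a ratio of 2.40 (2.28–2.54). It was the only 1 of the 10 higher at 7 dpi than in Uninjured, while *Cbfa2t3* and *Tle4*, both corepressor genes, were lower by 2.33-fold and 4.38-fold. The median log2 ratios were 0.31, −0.19, −0.36 and −0.23 over the 4 comparisons in time and −0.19 between the gates.

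Of the 7 E protein and Id genes, listed for *Twist1*, 0 of 7 differed by 2-fold in any of these comparisons. Their medians were 0.28, 0.07, −0.01 and 0.16 in time and −0.14 between the gates. Of the 7 other *Dlx*, *Msx* and *Twist* family genes, 1 to 3 had enough UMIs. *Dlx6* was higher at 7 dpi than in Uninjured (47 UMIs against 0). The ratio was 23.9 against a floor of 3 UMIs, and the lower limit of its interval was 18.7. *Twist2*, a relative of *Twist1*, was 2.10-fold lower at 7 dpi than in Uninjured. *Dlx6os1*, an RNA antisense to *Dlx6*, was 3.43-fold higher in chondrocyte-gated cells (1.56–8.12), on 22 against 10 UMIs. The medians of this list were −0.41, −0.26, 1.86 and 1.75 in time and 0.73 between the gates.

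Of the 15 other osteoblast transcription regulators, 4, 2, 4 and 8 were higher and 1, 0, 3 and 1 lower in the 4 comparisons in time (Uninjured to 1, 1 to 3, 3 to 7 and Uninjured to 7 dpi), with medians of 0.56, 0.07, 0.43 and 1.16. Between Uninjured and 7 dpi *Tcf7* (17.0-fold) and *Lef1* (5.76-fold), both nuclear effectors of WNT signals, were higher, as was *Vdr*, the vitamin D receptor (13.1-fold). *Hey1*, *Mef2c*, *Snai2* and *Prrx2* were higher by 2.23-fold to 2.89-fold and *Foxo1* was 3.10-fold lower. In chondrocyte-gated cells *Mef2c* (3.75-fold), *Lef1* (3.38-fold), *Vdr* (2.43-fold) and *Tcf7* (2.09-fold) were higher and 0 lower, with a median of 0.14.

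Of the 14 osteoblast and hypertrophy genes, 10, 10, 12 and 11 had enough UMIs in the comparisons in time. Of these 6, 0, 7 and 7 were higher and 0, 4, 3 and 2 lower, with medians of 2.0, −0.64, 2.20 and 2.69. From 3 to 7 dpi *Ibsp* was 43.4-fold and *Alpl* 9.38-fold higher. The same gate held 0 *Col10a1* and 1 *Panx3* UMIs at 3 dpi and 430 and 488 at 7 dpi. The part of cartilage cells or of free cartilage RNA in these differences was not tested. *Bglap*, in contrast, was 58.3-fold higher at 1 dpi than in Uninjured and 40.2-fold lower at 3 than at 1 dpi, and 454 of its 501 UMIs at 1 dpi lay in the 12 cells with *Sp7* described above. All 11 genes with enough UMIs were higher in chondrocyte-gated than in mesenchymal-gated cells, with a median of 3.42, among them *Col10a1* (55.9-fold), *Panx3*, a channel gene of hypertrophic cartilage (21.5-fold), and *Ibsp* (10.9-fold).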

How the data were processed

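Whole-number UMI counts per gene and cell were deposited by the authors for each library, made with Cell Ranger 5.0.0 on the mm10 build named, with Seurat 3.1.1, in the submitters' processing notes. The protocol mentions that reads were down-sampled for aggregation. It does not say if these counts come from before that step. Cells within 2 SD of the library mean of log10 UMIs and log10 genes and with at most 10% mitochondrial UMIs were kept, and the 7.5% of cells with the highest Scrublet scores were removed (scanpy 1.11.5). Pairs of libraries shared 30 to 95 barcodes. A cell joined the class with the most markers detected, at least 3 of 6, and chondrocyte markers took precedence over mesenchymal ones. Cells in no class made up 3.35%, 6.42%, 16.9% and 10.2% of the libraries. UMIs were summed per gate and library, with exact Poisson intervals for CPM, conditional binomial intervals for ratios and Clopper-Pearson intervals for shares (scipy 1.17.1, numpy 2.4.6, pandas 2.3.3, anndata 0.12.19, Python 3.11.15). Only the ratios and their intervals were tested on simulated data, drawn as Poisson counts without variation between cells. Figures were drawn with matplotlib 3.10.9.

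Named genes were the 9 members, list members with the most UMIs or past 2-fold, and the 3 genes most like each member with at least 200 UMIs. *Dlx3* and *Msx2* had fewer. Results on some genes that this rule names are not reported here. Of the gene identifiers, 99.6% matched GENCODE M21. Members and lists were chosen with earlier results of these data known, and the splits by *Sp7*, *Ptprc*, *Myog*, *Cd4* and *Cd8a*, *Col10a1* and bone genes were added later.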

Additional observations from a re-analysis of the deposited data

Results flagged for a closer look

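The following results stood out because gates moved in opposite directions between 3 and 7 dpi, and the differences between gates were not tested. *Runx1* at 7 dpi was 6.60-fold its 3 dpi level in endothelial-gated cells (25 against 4 UMIs), 19.7-fold in mural-gated cells (3.52–779, from 500 UMIs against 1 UMI in 16 cells) and 2.52-fold in Schwann-gated cells, but 0.371-fold in conventional dendritic cells, where 7 dpi held 4 UMIs in 9 cells. *Runx3* at 7 dpi was 2.92-fold its 3 dpi level in mesenchymal-gated cells and 0.359-fold in monocyte-macrophage-gated cells.

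Cells that joined no class were outside every comparison. In them the 7 dpi level over that of Uninjured was 2.50 for *Runx1*, 2.89 for *Runx2*, 30.1 for *Sp7*, 22.8 for *Dlx5* and 3.6 for *Twist1*.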

How the results depend on the processing

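No paired analysis was possible because each time point was 1 library. Of 576 single-gene ratios under the alternatives, 48 each came from the 100 UMI minimum and from no minimum, which cannot change a ratio. Of the 576, 559 kept their sign and 17 did not. Of the 17, 15 were ratios under 2-fold, and 2 had been counted as higher and turned, while 453 ratios moved less than their counting interval. Both were *Runx3* at 3 against 1 dpi in mesenchymal cells. The log2 ratio was −0.062 when the gate asked for *Prrx1* and *Col1a1* UMIs without *Ptprc*, and −0.68 after subtracting the B-gated level. B cells express *Runx3*, so that subtraction is no correction for free RNA. With thinned cells, 29 ratios moved past their counting interval and 19 did not. Thinning to 1000 UMIs changed the members higher at 1 dpi from 3 to 1, those lower at 3 against 1 dpi from 1 to 0 and the higher immune calls from 2 to 4. A minimum of 100 UMIs also left 1 member higher at 1 dpi. The mean over cells left 0 members lower at 3 against 1 dpi and gave 1 lower immune call instead of 0, as did no minimum of UMIs. The *Prrx1* and *Col1a1* gate left 0 members lower at 7 against 3 dpi. All deposited barcodes, and SD limits on linear counts, each gave 4 higher immune calls. Leaving out bone-gene cells or cells with *Ptprc*, both chosen after seeing the data, kept each count of members within 1.5 times. Apart from the smaller numbers of UMIs, the causes were not tested. Small numbers of UMIs limit what can be said of *Dlx3*, *Msx2* and, before 7 dpi, *Sp7*.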
